A study of Homo sapiens with 6 samples.

Results

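The aminoacyl-tRNA synthetases studied here comprise 35 human genes, chosen by name: 19 for enzymes of the cytosol, whose symbols end in 1 or are FARSA and FARSB, and 16 for enzymes of mitochondria, whose symbols end in 2. All 35 are among the 63643 genes of the count table, and 32 had enough counts to be tested, 17 cytosolic and 15 mitochondrial. The cells of both groups were HEK293T, a cell line derived from human embryonic kidney, with the ΔGLO1 deletion. GLO1 encodes glyoxalase 1, which begins the detoxification of methylglyoxal (MGO), and the labels give neither the extent of the deletion nor whether 1 clone was used. Treatment with 60 µM MGO lasted 4 h in the MGO group (3 libraries), and cells of the Control group (3 libraries) were left untreated. The library names of the MGO group carry a number other than this dose, whose meaning the labels do not give. The study asked whether MGO elicits the transcriptional programme of the integrated stress response (ISR).

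Each synthetase joins 1 amino acid to its tRNAs, and nuclear genes encode both the enzymes that serve cytosolic ribosomes and those imported to serve the mitochondrial ribosome. Several cytosolic enzymes sit together in a large multisynthetase complex, whereas the others act alone or as small oligomers. In the ISR, phosphorylation of eIF2α lowers general translation and favours synthesis of ATF4, a transcription factor known to bind composite sites (CARE) near many cytosolic synthetase genes and to raise their transcripts when amino acids are short or the endoplasmic reticulum is stressed. The mitochondrial enzymes are in the main outside that group.

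The known CARE core, TGATGNAA, gives the sequence side of this division. RefSeq windows from 250 bases before to 50 after the start site (GRCh38.p14, the first window listed for each gene) were found for 30 members, 16 cytosolic and 14 mitochondrial. The core occurred on either strand in 6 of the 16 cytosolic windows (37.5%) and in 1 of the 14 mitochondrial windows (7.14%), against 3.67% of all 27305 gene windows. The 7 stretches of 30 bases that hold it are shown because the direction of change of these genes is compared further on. They are written 5′ to 3′ on the strand of the gene, with the match in capitals and lower case for its flanks.
AARS1: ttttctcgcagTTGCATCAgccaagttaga
CARS1: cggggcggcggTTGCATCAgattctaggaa
IARS1: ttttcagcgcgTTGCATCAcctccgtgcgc
MARS1: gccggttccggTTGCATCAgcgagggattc
NARS1: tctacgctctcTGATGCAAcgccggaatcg
TARS1: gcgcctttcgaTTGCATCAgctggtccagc
YARS2: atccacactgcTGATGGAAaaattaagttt

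In all 6 cytosolic stretches the match reads TTGCATCA or its reverse complement TGATGCAA, and YARS2 has TGATGGAA. Coordinates in brackets below are those of the whole stretch of 30 bases, and the distances from the start site are those of the match. The AARS1 match begins at −187 from the start site (chr16:70289675-70289704, minus strand), whereas those of CARS1 (chr11:3057407-3057436, minus), IARS1 (chr9:92293692-92293721, minus) and MARS1 (chr12:57488053-57488082, plus) begin at −2, −13 and −4. Those of NARS1 (chr18:57621804-57621833, minus) and TARS1 (chr5:33440956-33440985, plus) begin at 15 and 3 bases into the transcript, and that of YARS2 (chr12:32756076-32756105, minus) at −197. Other motifs were commoner in the windows of all genes. The NRF1 core TGCGCA was found in 8 of 30 member windows against 8.42% of all, the E-box CACGTG in 4 against 7.43%, and CCAAT in 16 against 35.7%. These matches describe the letters of the windows and are not evidence of binding.

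Total counts were 128270160 to 138680220 in MGO libraries and 117427883 to 157639431 in Control libraries. Levels are given in CPM, the usual depth-scaled count, here of the TMM-scaled library, and changes as log2 fold changes of MGO over Control with their standard error (SE) from edgeR's quasi-likelihood test, adjusted over all 23109 genes tested. GLO1 had 106.4, 101.6 and 97.32 CPM in MGO and 37.59, 36.27 and 37.95 CPM in Control libraries, which checks neither the deletion nor the labels, since the extent of the deletion is unknown here. Of 6 genes known in this cell line (KRT8, KRT18, VIM, PAX2, CDH2 and NEFL), all 6 averaged at least 1 CPM, whereas summed blood markers stayed at 0.436 to 0.800 CPM in MGO and 0.175 to 0.301 CPM in Control. Fibroblast markers, of which 1 of 4 averaged at least 1 CPM, summed to 5.20 to 5.77 CPM in MGO and 14.2 to 15.4 CPM in Control. INS and IAPP, markers of pancreatic beta cells, had at most 3 counts in all. Genes of the mitochondrial chromosome took 12.6 to 14.7% of the counts in MGO and 5.32 to 5.55% in Control libraries, and their part in the results was not tested. The labels do not tie the replicates to separate cultures, and the p-values therefore reflect only how these libraries vary, which may be technical.

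Synthetase transcripts changed in both directions after MGO, in both compartments. Among the cytosolic genes, 12 of 17 tested rose and 4 fell, and among the mitochondrial genes 9 of 15 rose and 4 fell, at an adjusted p under 0.05. Over all genes tested 79.3% passed that threshold, 38.8% higher and 40.5% lower, so a call in itself says little about a member. The groups were apart, with no overlap of any library, for 16 of 17 cytosolic and 13 of 15 mitochondrial genes, against 81.5% of all genes tested. Median log2 fold changes were 0.33 for the cytosolic and 0.29 for the mitochondrial set, beside −0.02 over all genes tested. No absolute scale exists without spike-in RNA. In bulk RNA, fewer cells of a type and less RNA per cell cannot be told apart. Library size alone moved the all-gene median by −0.52. It left 5 cytosolic genes higher and 10 lower, with 4 and 8 in the mitochondrial set. Over all genes it left 5673 higher and 12885 lower, so 30.6% of calls were higher, beside 33.3% in each set. Upper quartile scaling moved the all-gene median by 0.17. The median of the 32 members was 0.34 above the all-gene median, a distance that a change of scaling leaves nearly as it is by construction.

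**Figure D1:**
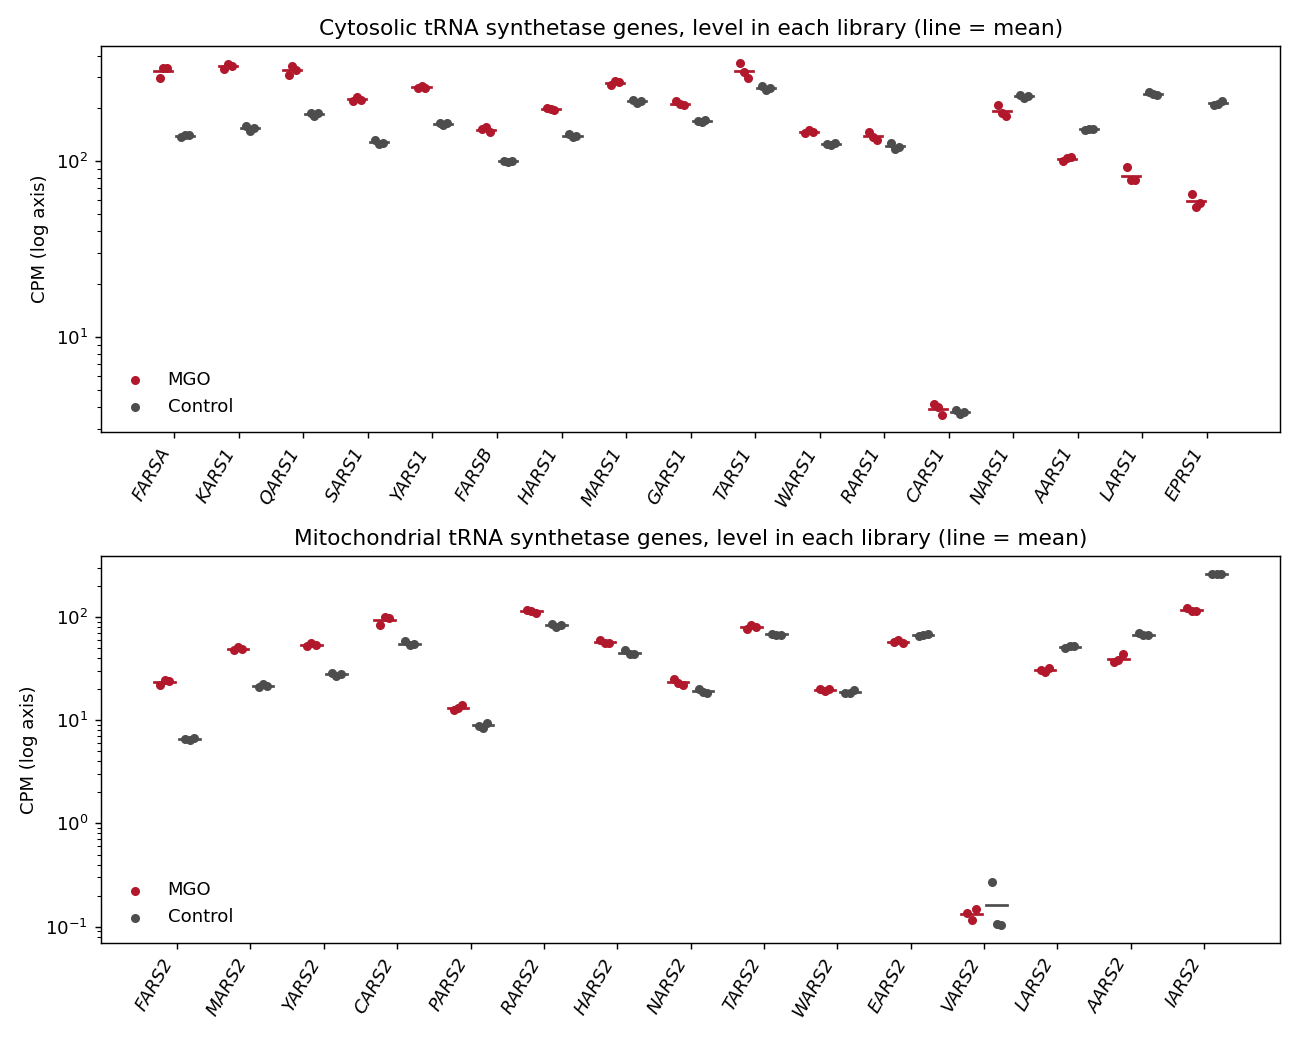
Level of each tested member in CPM (log axis) in the 3 MGO libraries (red, left) and the 3 Control libraries (grey, right), with lines at the means. Genes run by log2 fold change within each compartment, and red points lie above grey ones on the left of each panel and below them on the right.

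Enzymes of the multisynthetase complex changed in both directions. EPRS1 (chr1:219968601-220046658), which joins glutamyl- and prolyl-tRNA synthetase in 1 protein, had 64.8, 54.9 and 57.9 CPM in MGO and 207.8, 212.5 and 219.7 CPM in Control libraries. All MGO libraries were below all Control libraries, and the fall was the largest of any member tested (log2 fold change −1.85, SE 0.07, edgeR adjusted p = 3.11e-10). LARS1 (chr5:146113038-146182660), the leucyl enzyme, which also acts as a leucine sensor for mTORC1, had 93.0, 77.7 and 77.8 CPM in MGO and 247.0, 241.2 and 237.2 CPM in Control libraries. It fell by 1.55 on the log2 scale (SE 0.08, edgeR adjusted p = 1.94e-09). In MGO replicate 1 both genes stood somewhat above the other MGO libraries and far below Control.

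KARS1 (chr16:75627474-75648643), the lysyl enzyme, rose against these. Its single gene makes both the cytosolic and the mitochondrial lysyl enzyme. It had 335.1, 359.1 and 349.7 CPM in MGO and 159.1, 148.5 and 155.5 CPM in Control libraries, with no overlap (log2 fold change 1.17, SE 0.06, edgeR adjusted p = 2.86e-09). QARS1 (chr3:49095932-49105135), the glutaminyl enzyme, likewise rose, with 308.9, 346.6 and 331.7 CPM in MGO and 187.1, 180.0 and 187.3 CPM in Control libraries (0.83, SE 0.06, edgeR adjusted p = 9.75e-08). MARS1, the methionyl enzyme, rose by 0.35 (SE 0.06) and RARS1, the arginyl enzyme, by 0.19 (SE 0.06) on the log2 scale. Under library size alone MARS1 and RARS1 turned to −0.18 and −0.34, and the call of RARS1 ended when Control replicate 2 (adjusted p = 0.0879) or 3 (0.0764) was left out, or when no filter was used (0.0652). Of the 7 complex enzymes listed, 4 thus rose and 2 fell, and IARS1 was not tested.

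The scaffold proteins of the same complex were AIMP1, AIMP2 and EEF1E1. AIMP2 rose to 84.5 CPM in MGO, against 33.0 CPM in Control (log2 fold change 1.36, SE 0.08), and EEF1E1 to 41.4 against 21.4 CPM (0.95, SE 0.07). AIMP1 stood at 69.0 CPM in MGO and 68.3 CPM in Control and did not pass the threshold (edgeR adjusted p = 0.837), with −0.51 under library size alone and 0.19 under upper quartile scaling.

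Among the free cytosolic enzymes, 8 of 11 tested rose and 2 fell. FARSA (chr19:12922479-12934037), the catalytic subunit of phenylalanyl-tRNA synthetase, had 295.9, 341.1 and 337.9 CPM in MGO and 137.9, 141.6 and 140.4 CPM in Control libraries. It rose by 1.22 (SE 0.07, edgeR adjusted p = 5.59e-09), which differs from the rise of KARS1 by less than 1 SE. FARSB, its partner subunit in the same enzyme, rose by 0.60 (SE 0.06), to 151.6 ± 4.79 CPM in MGO against 99.8 ± 1.2 CPM in Control (SD, n = 3 each), but stood at 0.08 under library size alone (edgeR adjusted p = 0.255).

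SARS1 (chr1:109213918-109238169), the seryl enzyme, which also supplies the serine for selenocysteine, had 220.4, 233.6 and 223.9 CPM in MGO and 132.0, 125.5 and 127.6 CPM in Control libraries (0.82, SE 0.06, edgeR adjusted p = 5.83e-08). GARS1 (chr7:30594681-30634033) also serves both compartments from 1 gene, as the glycyl enzyme. It had 219.6, 210.8 and 207.7 CPM in MGO and 168.8, 168.0 and 172.4 CPM in Control libraries, a rise of 0.33 (SE 0.06, edgeR adjusted p = 0.000226) that turned to −0.20 under library size alone. The remaining rises ran from YARS1, the tyrosyl enzyme, at 0.69 and HARS1, the histidyl enzyme, at 0.51 to TARS1 (threonyl) at 0.32 and WARS1 (tryptophanyl) at 0.23. HARS1, TARS1 and WARS1 turned to −0.02, −0.21 and −0.29 under library size alone.

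The falls among the free enzymes were smaller than those of EPRS1 and LARS1. AARS1 (chr16:70252295-70289543), the alanyl enzyme, had 99.7, 104.5 and 105.8 CPM in MGO and 151.4, 151.6 and 152.3 CPM in Control libraries (log2 fold change −0.55, SE 0.06, edgeR adjusted p = 1.90e-06). NARS1 (chr18:57600656-57622213), the asparaginyl enzyme, had 208.6, 187.8 and 180.5 CPM in MGO and 239.7, 228.4 and 234.5 CPM in Control libraries. It fell by 0.28 (SE 0.07, edgeR adjusted p = 0.00200), and the call ended under upper quartile scaling (adjusted p = 0.147). CARS1, the cysteinyl enzyme, was low throughout, at 3.90 ± 0.28 CPM in MGO and 3.73 ± 0.10 CPM in Control (SD, n = 3 each), with groups that overlapped (0.06, SE 0.09, edgeR adjusted p = 0.539). Its value was −0.46 under library size alone (adjusted p = 0.000887) and 0.24 under upper quartile scaling (0.0346).

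The genes widely described as ATF4 targets did not move as 1 block. Of 13 such cytosolic genes 11 were tested, of which 6 rose and 4 fell around a median of 0.23 on the log2 scale (−0.29 under library size alone, with 2 higher and 9 lower). The other 6 cytosolic genes all rose, with a median of 0.72 (0.19 under library size alone, with 3 higher and 1 lower), beside −0.02 over all genes tested. ATF4 itself rose to 2303 CPM in MGO, against 383.1 CPM in Control (2.59, SE 0.06), and DDIT3, its target and partner, to 114.9 against 10.1 CPM (3.52, SE 0.07). CHAC1 and ASNS, other known ATF4 targets, fell by 2.28 and 1.87, both at low levels. CHAC1 averaged 1.73 CPM in MGO and 8.44 CPM in Control, and ASNS 1.05 CPM in MGO and 3.84 CPM in Control. Of the 5 tested cytosolic genes with a CARE core in the window shown above, MARS1 and TARS1 rose, AARS1 and NARS1 fell, and CARS1 did not pass the threshold. EPRS1 and FARSA, at the ends of the cytosolic range, had no such match in their windows.

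**Figure D2:**
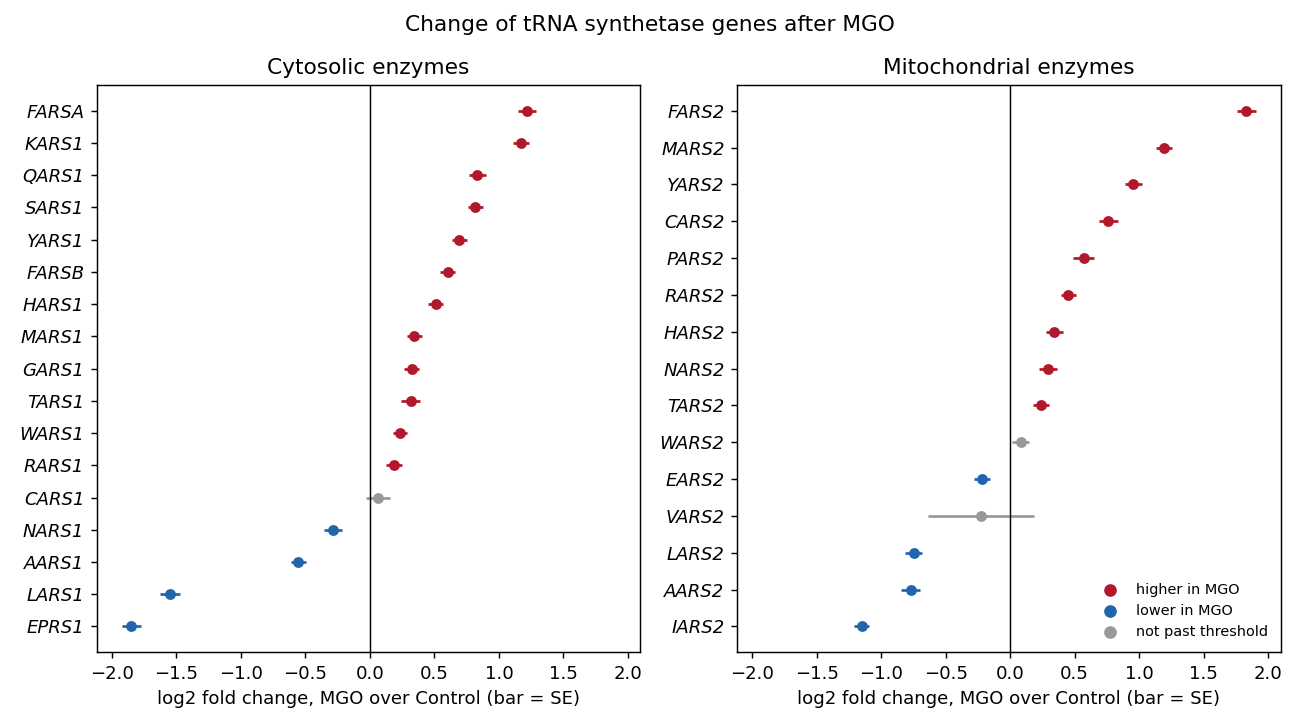
Log2 fold change of MGO over Control for the 17 cytosolic (left panel) and 15 mitochondrial (right panel) members tested, with SE bars. Values run from −1.85 (EPRS1) to 1.22 (FARSA) in the cytosolic set and from −1.15 (IARS2) to 1.83 (FARS2) in the mitochondrial set; red marks genes higher in MGO, blue lower, and grey those that did not pass the threshold.

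The mitochondrial set was led by FARS2 (chr6:5261044-5829192), the phenylalanyl enzyme, a single chain unlike its cytosolic counterpart. It had 21.9, 24.4 and 24.1 CPM in MGO and 6.60, 6.48 and 6.71 CPM in Control libraries. This 3.56-fold increase was the largest of any member (log2 fold change 1.83, SE 0.07, edgeR adjusted p = 3.18e-10). MARS2 (chr2:197705369-197708387), the methionyl enzyme, had 48.0, 51.0 and 48.7 CPM in MGO and 20.8, 22.5 and 21.4 CPM in Control libraries (1.192, SE 0.06, edgeR adjusted p = 3.43e-09). No library of the MGO group overlapped a Control library for either gene.

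YARS2 (chr12:32727490-32755902), the tyrosyl enzyme, had 52.2, 56.6 and 53.5 CPM in MGO and 28.8, 27.0 and 27.8 CPM in Control libraries, a rise of 0.96 (SE 0.06). CARS2 (chr13:110641412-110713603), the cysteinyl enzyme, had 84.5, 99.4 and 97.4 CPM in MGO and 58.6, 53.3 and 54.2 CPM in Control libraries, a rise of 0.76 (SE 0.08). The edgeR adjusted p was 2.30e-08 for YARS2 and 1.02e-06 for CARS2. Smaller rises were those of PARS2 (prolyl, 0.57), RARS2 (arginyl, 0.45), HARS2 (histidyl, 0.34), NARS2 (asparaginyl, 0.29) and TARS2 (threonyl, 0.24). Under library size alone RARS2, HARS2, NARS2 and TARS2 turned to −0.07, −0.18, −0.23 and −0.29, and PARS2 no longer passed the threshold (adjusted p = 0.607). WARS2, the tryptophanyl enzyme, stood at 19.8 ± 0.40 CPM in MGO and 18.7 ± 0.66 CPM in Control (SD, n = 3 each) and did not pass the threshold (edgeR adjusted p = 0.264).

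The largest fall of the mitochondrial set was that of IARS2 (chr1:220094102-220148041), the isoleucyl enzyme. It had 122.0, 115.2 and 114.9 CPM in MGO and 262.4, 258.4 and 260.2 CPM in Control libraries (log2 fold change −1.15, SE 0.06, edgeR adjusted p = 2.38e-09). AARS2 (chr6:44299654-44313326), the alanyl enzyme, had 36.8, 38.6 and 43.4 CPM in MGO and 69.6, 66.4 and 66.4 CPM in Control libraries, and fell by 0.77 (SE 0.07). LARS2 (chr3:45388506-45549421), the leucyl enzyme, had 30.4, 29.6 and 32.3 CPM in MGO and 49.7, 52.4 and 52.9 CPM in Control libraries, and fell by 0.75 (SE 0.06). The edgeR adjusted p was 6.06e-07 for AARS2 and 2.64e-07 for LARS2. EARS2 (chr16:23522014-23557731), the glutamyl enzyme, which also loads the mitochondrial glutamine tRNA before its amidation, was a weaker case, with 57.0, 59.7 and 55.7 CPM in MGO and 65.3, 66.8 and 68.5 CPM in Control libraries. Its fall of 0.22 (SE 0.06, edgeR adjusted p = 0.00490) did not hold under upper quartile scaling (adjusted p = 0.496) and turned to 0.17 with the transcript length trend removed (adjusted p = 0.0108).

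Members near 0 counts could not be compared. SARS2, the mitochondrial seryl enzyme (chr19:38915266-38930896), was listed at 0 in all 6 libraries. IARS1, the isoleucyl enzyme of the complex (chr9:92210207-92293756), had 1 count in the MGO and 2 in the Control libraries, and VARS1, the cytosolic valyl enzyme (chr6:31777518-31795953), had 1 in each group. VARS2, the mitochondrial valyl enzyme, was tested with 15, 13 and 17 counts in MGO and 39, 20 and 18 counts in Control libraries, which overlapped (log2 fold change −0.23, SE 0.41, edgeR adjusted p = 0.620), and its value was 0.34 without Control replicate 1. Most cells need these enzymes, so counts near 0 are not read as absent expression. In the GENCODE release 29 annotation 83.1% of the exon bases of SARS2 lie in exons of other genes, against 0% for IARS1, VARS1 and VARS2. How the authors' counting treated reads matching several genes or places is not stated in these sources, and its part in these values was not tested.

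Another 13 members share exon bases with a gene on the opposite strand alone, up to 14.2% (HARS2). HARS1 and HARS2 lie head to head and share 402 bases. Exons of MARS1 share 62 bases, 2.13% of its exon bases, with DDIT3 on the other strand. The kit keeps strand, but the strand setting of the counting is not given, so values of these genes are uncertain to that extent.

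Levels can be compared between genes only per transcript length. In CPM per kb of transcript, the tested cytosolic genes had a median of 75.7 in MGO and 57.2 in Control, and the mitochondrial genes 14.5 in MGO and 13.1 in Control. FARSA and KARS1 led in both groups, at 179.1 ± 13.9 and 173.5 ± 6.05 in MGO and 77.2 ± 1.04 and 77.0 ± 2.68 in Control (SD, n = 3 each), each time closer to each other than their spread. MARS1 (75.6 ± 1.60) and NARS1 (75.6 ± 1.84) were next in Control, within that spread as well. EPRS1 was 25th of the 35 members in MGO at 11.8 CPM per kb and 16th in Control at 42.6, and LARS1 was 21st in MGO and 12th in Control. IARS2 came 16th in MGO (33.0 ± 1.13), behind RARS2 and CARS2, and was the highest mitochondrial gene in Control (73.1 ± 0.56, 5th of 35).

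Summed over the members, cytosolic synthetases took 3388, 3440 and 3338 CPM in MGO and 2789, 2709 and 2764 CPM in Control libraries. The mitochondrial sum was 764.8, 783.6 and 770.8 CPM in MGO and 811.9, 790.0 and 800.1 CPM in Control libraries. The cytosolic sum was thus 4.33 to 4.43 times the mitochondrial sum in MGO and 3.43 to 3.46 times in Control. IARS2 alone averaged 117.4 CPM in MGO and 260.3 CPM in Control, a larger fall than that of the whole mitochondrial sum. Its cytosolic counterpart IARS1 was near 0 counts, and 9 of the 15 mitochondrial genes tested rose. Under TMM scaling the lower mitochondrial sum therefore rests on IARS2 and is not a shift shared by the set. Under library size alone 4 mitochondrial genes were higher and 8 lower, and the sums were not taken under that scaling. The ratios for single amino acids lay mostly on the other side. Among 12 cytosolic and mitochondrial pairs for the same amino acid (FARSA and FARSB each set against FARS2), the ratio was lower in MGO for 8 and higher for 4, without overlap of the groups in 11. FARSB over FARS2 differed most, with log2 ratios of 2.80, 2.68 and 2.61 in MGO and 3.94, 3.93 and 3.90 in Control libraries. MARS1 over MARS2 differed by −0.85, LARS1 over LARS2 by −0.80, CARS1 over CARS2 by −0.70, FARSA over FARS2 by −0.62 and NARS1 over NARS2 by −0.58. AARS1 over AARS2 (0.22), HARS1 over HARS2 (0.17) and WARS1 over WARS2 (0.15) were higher in MGO, and TARS1 over TARS2 (0.08) overlapped. With 3 libraries against 3, a two-sided exact permutation test cannot give a p below 0.1, which the 11 pairs reached (0.109 adjusted over the 12 pairs), so this test could call no pair whatever the size of its difference. NARS1 and NARS2 were the only pair whose members changed in opposite directions under TMM scaling, and under library size alone both were lower in MGO (−0.81 and −0.23).

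**Figure D3:**
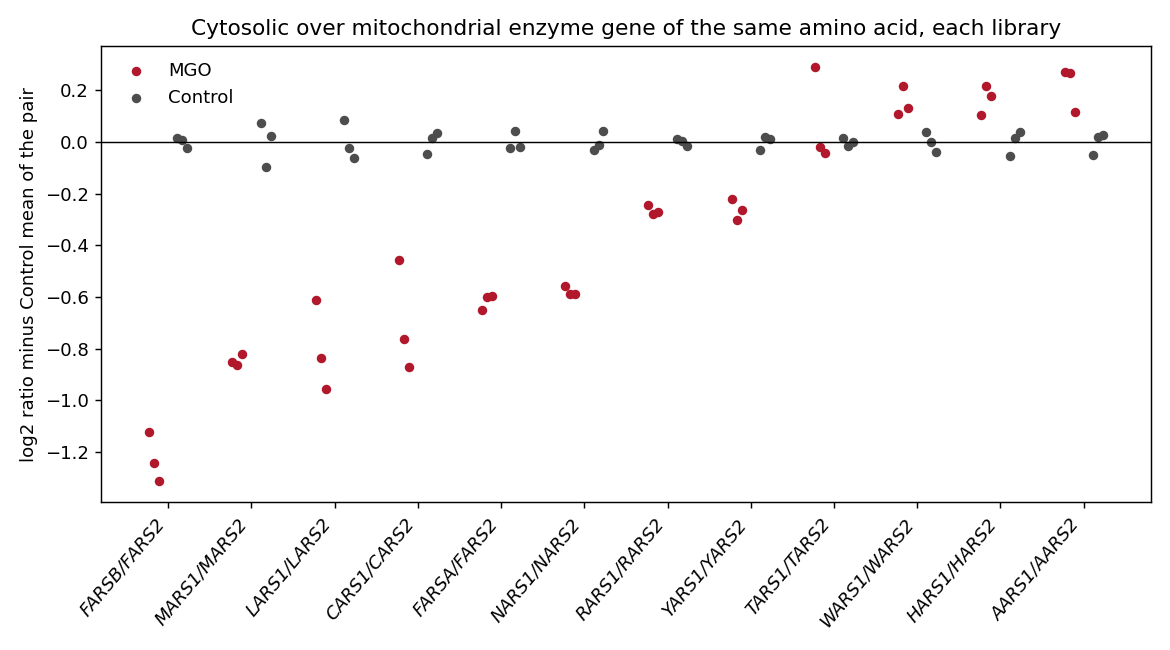
Log2 ratio of the cytosolic to the mitochondrial gene for the same amino acid in each MGO library (red, left) and Control library (grey, right), drawn as the difference from the Control mean of that pair. The MGO points lie below 0 for 8 pairs, above 0 for AARS1, HARS1 and WARS1, and on both sides of 0 for TARS1.

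Transcript length moved with these changes. It was taken from the principal isoform of each gene in GENCODE release 29, and the Spearman correlation between length and log2 fold change was −0.73 across the 32 members tested (−0.66 for the 17 cytosolic and −0.79 for the 15 mitochondrial) and −0.57 across 14707 protein-coding genes. These values run across genes of the same 6 libraries, which are not independent replicates. All 10 members under 2500 nt rose, among them FARS2 (1692 nt), FARSA (1814 nt), SARS1 (1852 nt) and KARS1 (2005 nt), beside 66.9% of coding genes of that length. Of the 14 members from 2500 to 3500 nt, 10 rose and 2 fell, beside 41.8% of such coding genes that rose and 34.2% that fell. Of the 8 over 3500 nt, 6 fell and 1 rose, beside 70.1% of coding genes that fell, and these include EPRS1 (5014 nt), LARS1 (4766 nt), LARS2 (4744 nt) and IARS2 (3560 nt). TARS1 (4314 nt) was the member of that class that rose, and MARS2 (3019 nt) rose more than any other member over 2500 nt.

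With the trend on length removed from each library, 11 cytosolic genes were higher and 4 lower. In the mitochondrial set 8 genes were higher, EARS2 among them, and 2 lower. Over all genes in that fit 8743 were higher and 8110 lower, so 51.9% of calls were higher, beside 76% for the members. The members' median above that of all genes tested was then 0.17. Length still went with the values so obtained, at a Spearman correlation of −0.44 across the 32 members and −0.12 across the coding genes. EPRS1 (−1.12), LARS1 (−0.89) and IARS2 (−0.90) still fell, and FARS2 (1.39), MARS2 (1.23) and KARS1 (0.83) still rose. TARS1 moved to 0.82. LARS2 moved to −0.10 (adjusted p = 0.118), NARS2 to 0.12 (0.128) and RARS2 to 0.05 (0.462), past the threshold no longer, and RARS1 turned to −0.11 (0.109). Whether length, or a property that goes with it, has a part in the changes of single members was not tested further.

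**Figure D4:**
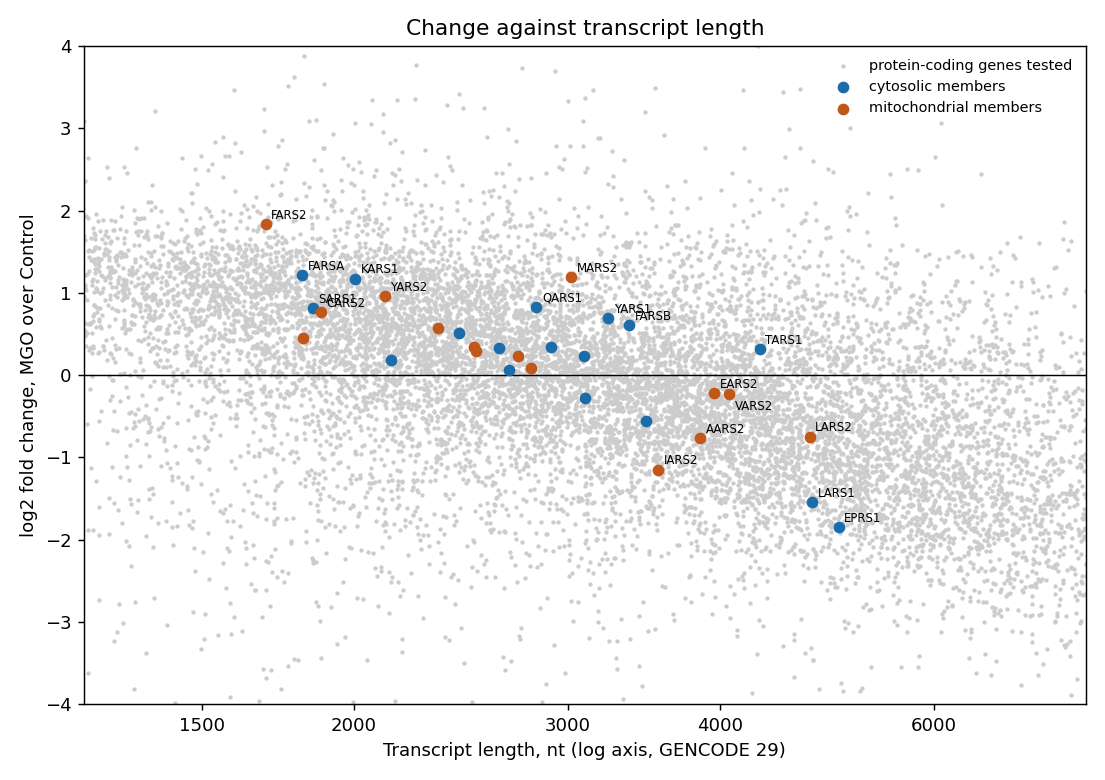
Log2 fold change of MGO over Control against transcript length (log axis) for protein-coding genes tested (grey; genes beyond the axes are not drawn) and for cytosolic (blue) and mitochondrial (orange) members, those far from 0 or long being named. The members slope down with the grey cloud, with FARS2 at 1.83 on the left and EPRS1 at −1.85 on the right.

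Other genes of tRNA charging were taken from lists of the same pathway. Of 44 tested, 28 rose and 10 fell, beside 38.8% higher and 40.5% lower over all genes tested. Their median was 0.72 on the log2 scale, beside −0.02 over all genes tested. Coding genes had medians of 0.73 under 2500 nt, 0.07 from 2500 to 3500 nt and −0.81 over 3500 nt. Whether the median of the 44 genes goes beyond their lengths was not tested. Among the pathway genes that rose, GATC, QRSL1 and TSEN15 were below 0 under library size alone (−0.10, −0.03 and −0.13). Partners of mitochondrial charging rose in 5 of 6 cases and fell in none, with TUFM, the mitochondrial elongation factor that receives charged tRNA, at 1.29 (SE 0.07) and its exchange factor TSFM at 0.90 (SE 0.14). MTFMT, which formylates the initiator methionyl-tRNA made by MARS2, did not pass the threshold (−0.14, edgeR adjusted p = 0.0934).

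Of 16 genes that process tRNA ends, 9 rose and 4 fell, beside 38.8% higher and 40.5% lower over all genes tested. TRMT10C rose to 116.1 CPM in MGO, against 23.1 CPM in Control (2.33, SE 0.07), and HSD17B10 to 385.2 against 123.6 CPM (1.64, SE 0.07), whereas PRORP fell to 2.91 against 15.96 CPM (−2.46, SE 0.09). These encode the subunits of mitochondrial RNase P, with PRORP the nuclease. RPP38, a nuclear RNase P subunit, rose by 1.84 and POP1, another, fell by 0.99. Of 8 tested tRNA splicing genes, 6 rose and 1 fell, led by CLP1 (1.65) and RTRAF (1.14), with FAM98B at −0.92.

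XPOT, the exporter of tRNA from the nucleus, fell to 58.8 CPM in MGO, against 195.7 CPM in Control (−1.74, SE 0.07), and XPO5 fell by 0.84. EEF1A1 and EEF1A2, which carry charged tRNA to the cytosolic ribosome, rose by 0.97 and 1.11. Among genes for editing or release of mischarged and stalled tRNA, PTRH2 (2.06), DTD1 (1.14) and AARSD1 (0.72) rose, and DTD2 (−0.61) fell. In the selenocysteine branch, which starts from the product of SARS1, the kinase gene PSTK rose by 1.31 and SEPSECS fell by 0.76. With the length trend removed XPO5 (−0.01), SEPSECS (0.10) and AARSD1 (0.19) no longer passed the threshold.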

How the data were processed

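PolyA RNA was sequenced as stranded pairs of reads, per the labels' protocols. Raw counts for each gene were deposited by the authors. The submitters' processing notes name build hg38 and, as tools, featureCounts 2.0.6, STAR 2.7.0a, DESeq2 1.42.0, Trim Galore 0.6.10, FastQC 0.12.0 and SAMtools 1.19.2. They give no annotation, strand setting or handling of multiply matching reads. Counts were tested with edgeR 4.0.16 (R 4.3.3, filterByExpr, TMM, quasi-likelihood test, Benjamini-Hochberg adjustment, threshold 0.05). The steps were tested on simulated data in which a small part of the genes changed, in equal numbers up and down. Most genes were called in the real data, so the simulation does not test the scaling there. SE was derived from the F statistic, as |log2 fold change|/√F. Gene positions, exon overlaps and transcript lengths came from GENCODE 29 (GRCh38); promoter windows from RefSeq (GRCh38.p14). Alternatives were other scalings, filters, DESeq2, limma-voom 3.58.1, robust dispersions, a replicate block, removal of the length trend and leaving out each library. Members and lists were chosen with earlier results of these data known. In each compartment, the 4 genes that rose most and the 4 that fell most among those called at a mean of at least 1 CPM, EPRS1, KARS1, GARS1, QARS1 and members under 20 counts were described in full; each pathway list by its 2 largest rises and falls, and other genes named were chosen after their values were seen. Single values of some list genes are not reported here. No pair of replicates was alike enough to be a single library deposited again (chi-square over its degrees of freedom at least 3.77).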

Additional observations from a re-analysis of the deposited data

How the results depend on the processing

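Under RLE size factors, DESeq2, limma-voom, robust dispersions and the replicate block, all 32 members tested kept their direction and their side of the threshold, and 14 (9 higher and 5 lower) kept both under every alternative run. The replicate block left 12 cytosolic genes higher and 4 lower, and 9 mitochondrial genes higher and 4 lower; same-numbered libraries did not deviate together (correlations −0.13, −0.29 and 0.02). Library size alone gave 5673 genes higher and 12885 lower over all genes. It left 5 cytosolic genes higher and 10 lower, and 4 mitochondrial genes higher and 8 lower. Set medians were −0.20 (cytosolic) and −0.23 (mitochondrial) under library size alone. It turned 12 members: CARS1 (−0.46), GARS1 (−0.20), HARS1 (−0.016), MARS1 (−0.18), RARS1 (−0.34), TARS1 (−0.21), WARS1 (−0.29), HARS2 (−0.18), NARS2 (−0.23), RARS2 (−0.073), TARS2 (−0.29) and WARS2 (−0.44). Upper quartile scaling gave medians of 0.50 and 0.46. Removal of the length trend left 2 mitochondrial genes lower with a median of 0.17, and turned RARS1 (−0.11), EARS2 (0.17) and, without a call in either fit, CARS1 (−0.039) and VARS2 (0.196). Each scaling is a different assumption about which genes stay level, which cannot be settled without spike-in RNA. Leaving out single libraries changed the call of RARS1 alone, and turned VARS2 (0.341 without Control replicate 1, −0.475 to 0.341 over the libraries), which had no call. VARS2 was not tested with the 1 CPM filter.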

Other observations

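EPRS1 and IARS2, the members with the largest falls in their compartments, lie 47.4 kb apart on chromosome 1 (EPRS1 219968601 to 220046658, IARS2 220094102 to 220148041), transcribed away from each other. BPNT1, which lies between them (220057482 to 220090462, 2737 nt), rose to 48.1 ± 1.98 CPM in MGO, against 35.9 ± 0.64 CPM in Control (SD, n = 3 each; log2 fold change 0.42, edgeR adjusted p = 3.85e-05). RAB3GAP2, on the far side of IARS2 with a transcript of 7257 nt, fell by 1.46, SLC30A10 (1915 nt) by 0.74 and MARK1 (2946 nt) by 0.61. These genes were looked up after the values of EPRS1 and IARS2 were seen.

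ALB, which encodes serum albumin and is a marker of hepatocytes, had 560 counts in MGO replicate 1 and 5 and 8 in the other MGO libraries, against 7, 19 and 6 in Control libraries. APOA1, also a hepatocyte marker, had 61, 19 and 17 counts in the MGO libraries, and LYZ, a blood marker, had 74, 10 and 11. The blood markers PTPRC (0, 3 and 2) and SPI1 (14, 37 and 36) were instead lowest in MGO replicate 1 among the MGO libraries. Without MGO replicate 1 all 32 members tested kept their direction and call.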
